A study of Mus musculus with 15 samples.

Results

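The mRNA of 10 genes, which encode integrin subunits and the adhesion molecules they meet, was followed in RAW 264.7 macrophages, an established mouse cell line, that received LPS together with extracellular vesicles (EVs) from the plasma of irradiated or sham mice. The genes were chosen by symbol, and all 10 were present among the 561 genes of the nanoString nCounter Mouse Immunology panel, an assay in which barcoded probes on single mRNA molecules are counted directly. They are the ligands *Icam1* and *Vcam1*, the alpha subunits *Itgal*, *Itgam*, *Itgax* and *Itga4*, the beta subunits *Itgb2* and *Itgb1*, the hyaluronan receptor *Cd44* and the selectin ligand *Selplg*. The EVs came from female C57BL/6J mice of 6 to 8 weeks that were sham treated or that had received whole-body ionizing radiation (WBIR), at 2 or 9 Gy, with plasma taken 3 or 7 days later. EVs were isolated by differential centrifugation, and the day of the sham mice is not given. This gave 5 groups (sham EVs, 2 Gy day 3, 2 Gy day 7, 9 Gy day 3 and 9 Gy day 7 EVs) of 3 samples each, 15 samples in all. Every sample carried LPS and EVs for 24 hours, so no sample shows the cells without LPS or without EVs. The sources do not tie the 3 samples of a group to separate mice or EV isolations, and according to the methods samples were run in triplicate, so p-values measure the spread between these samples, which may be technical. The number of EVs per exposure differs between the labels and the methods and is not given here.

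Integrins are receptors made of an alpha and a beta subunit that hold cells to matrix and to other cells. *Itgb2* is the beta subunit shared by the leukocyte integrins, in which it pairs with *Itgal* (LFA-1), *Itgam* (Mac-1) or *Itgax*, and the ligand *Icam1* is bound by LFA-1 and Mac-1. *Itga4* pairs with *Itgb1* to form VLA-4, whose ligand on other cells is *Vcam1*. On macrophages these receptors serve attachment, migration into tissue and, for Mac-1, uptake of particles coated with complement, and *Icam1* is a textbook target of LPS signaling.

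The 9 Gy day 3 samples stood apart in depth. Their total counts ranged from 43176 to 87899, against 453178 to 837995 in the other 12 samples, and between 190 and 246 of their genes had the lowest deposited count of 1, against 5 to 11 elsewhere. Of these samples, replicates 1 and 2 also carry a day label of 7 and were placed at day 3 by their titles. Without them the 9 Gy day 3 group is 1 sample, replicate 3, whose spread is then assumed to be that of the other groups, so tests without them say little of that group. Each result that rests on them is therefore given beside that of the 9 Gy day 7 samples. Levels are given as normalized counts, that is, counts divided by a factor from the geometric mean of 14 housekeeping genes in the same sample. The 9 Gy day 7 samples stood apart in this factor, at 1.95 to 2.12 against 1.09 to 1.47 in the sham and 2 Gy samples. Their totals, at 453178 to 617963, were not higher. Of the macrophage markers, 10 of 11 were on the panel and 9 passed the filter. They ranged widely, with *Tyrobp* at 2417 to 2795 normalized counts and *Fcer1g* at 3409 to 4560 in the sham group against 18.1 to 35.4 for *Csf1r* and 23.8 to 40.7 for *Tlr4*, while *Ccr2* never exceeded 11 counts. Of the markers of other cells, the T cell gene *Cd3e* never exceeded 15 counts and the endothelial gene *Cdh5* 8, and the 4 endothelial and platelet markers summed to at most 33. Others were higher, with up to 175 counts for *Cd8a*, 74 for *Lck*, 60 for *Eomes* and 34 for the B cell gene *Ms4a1*. The markers moved with the 9 Gy groups too. The summed macrophage markers were at 10511 to 15178 normalized counts in the sham group, 6301 to 8114 in the 9 Gy day 3 group and 6287 to 7732 in the 9 Gy day 7 group, and 6 of the 9 tested were lower and 1 (*Csf1r*) higher at both days, which total-count scaling turned into 1 lower and 3 higher at day 3 and 0 lower and 3 higher at day 7. Their part in the results below was not tested, and *Itgam* is itself one of these markers. Among the markers of other cells, *Cd8a* (−0.89 and −0.82) and *Lck* (−1.05 and −0.71) were lower at 9 Gy day 3 and day 7, and *Eomes* (−0.94) and *Ms4a1* (−0.71) at day 7, and none of these passed with TMM or total counts. The 7 T cell markers on the panel summed to 148 to 175 normalized counts in the sham group, 72.1 to 113 at 9 Gy day 3 and 81.9 to 101 at 9 Gy day 7.

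Of the 10 genes, 7 had a mean count of 20 or more across all samples and were tested, among 269 genes that did. *Vcam1*, *Itgax* and *Selplg* did not pass. Promoters are shown for *Icam1* and *Itga4*, which were higher with 9 Gy EVs, and for *Itgam*, which was lower, so that genes that moved in opposite directions can be compared. The RefSeq promoter table for GRCm38.p6 held 6 of the 10 genes. Each sequence is the 250 bases before the start of the gene, read 5′ to 3′ on the plus strand, at chr9:21015690-21015939 for *Icam1*, chr2:79255176-79255425 for *Itga4* and chr7:128062390-128062639 for *Itgam*. Capitals mark matches to the motifs searched.
Icam1: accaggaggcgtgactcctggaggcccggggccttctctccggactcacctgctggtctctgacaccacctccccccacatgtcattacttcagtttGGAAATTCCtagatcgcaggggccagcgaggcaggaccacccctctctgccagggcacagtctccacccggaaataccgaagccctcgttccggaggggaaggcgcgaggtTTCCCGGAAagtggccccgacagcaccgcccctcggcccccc
Itga4: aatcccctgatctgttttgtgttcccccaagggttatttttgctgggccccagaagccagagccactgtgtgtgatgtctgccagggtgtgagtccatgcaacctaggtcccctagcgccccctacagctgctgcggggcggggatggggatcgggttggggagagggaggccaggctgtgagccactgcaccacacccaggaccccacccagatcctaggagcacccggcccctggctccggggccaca
Itgam: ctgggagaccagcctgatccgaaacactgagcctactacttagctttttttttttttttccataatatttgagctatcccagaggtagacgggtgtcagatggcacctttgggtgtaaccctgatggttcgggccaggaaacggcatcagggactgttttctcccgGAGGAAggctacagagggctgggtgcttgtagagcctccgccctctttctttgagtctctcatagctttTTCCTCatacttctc
In the *Icam1* promoter the first capitals match a relaxed NF-κB motif, GGAANTTCC, 153 bases before the start, and the second a STAT motif, TTCNNNGAA, 42 bases before it, without overlap. Over all 32851 promoters of that table, 0.813% held the former and 7.02% the latter. In the *Itgam* promoter both capitals match the PU.1 motif GAGGAA, 84 and 15 bases before the start on opposite strands, a motif held by 23.3% of all promoters. The AP-1 motif TGANTCA (6.75% of all promoters) and the canonical NF-κB motif (7.25%) were matched in none of the 3 sequences, and *Itga4* held none of the 5 motifs. Both strands were searched. A match is a description of the letters and says nothing of binding in these cells.

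EVs from mice given 9 Gy were followed by a split among the adhesion genes. The methods do not name the culture or run of a sample, so a difference of that kind cannot be told apart from dose. The ligand *Icam1* and the alpha subunit *Itga4* rose against sham EVs, the alpha subunits *Itgal* and *Itgam* fell, and under housekeeping scaling the beta subunits and *Cd44* moved by less. With both 9 Gy day 3 and 9 Gy day 7 EVs, 6 of the 7 genes tested passed an adjusted p of 0.05 in the quasi-likelihood test of edgeR, with Benjamini-Hochberg adjustment over all genes, 2 higher and 4 lower. Among all 269 genes tested, 52.4% passed at day 3 and 61.0% at day 7, so most of the genes tested moved in these comparisons. The 2 genes that rose are to be read against 11.2% of all genes called higher at day 3 and 11.9% at day 7, and the 4 that fell against 41.3% and 49.1% called lower. The sample values of 7 of the 7 genes at day 3 and 6 at day 7 did not overlap those of the sham group, which 55.8% and 61.7% of all genes also did not. These shares turn with the scaling. At day 3, 30 genes of the panel were called higher and 111 lower with housekeeping scaling, 59 and 60 with TMM, and 121 and 33 with total counts, and at day 7 the counts were 32 and 132, 75 and 76, and 143 and 31. With both 9 Gy groups taken as 1, 7 of the 7 genes passed, beside 63.6% of all genes. With TMM 4 passed, beside 153 of all 269 genes, and with median scaling 4, beside 154. Under housekeeping scaling the call of *Itgb2* was lost without any one of 6 samples. When the day 3 samples with conflicting day labels were placed at day 7 or left out, which leaves 1 sample at day 3, 2 of the 7 genes (*Itgam* and *Cd44*) passed at day 3, with 74 or 78 genes of the panel in place of 141. Over the 7 genes the median log2 fold change was −0.65 at day 3 and −0.53 at day 7, beside −0.46 and −0.45 for all genes tested. A set amount of RNA was loaded and counts were scaled within each sample, so neither the number of cells nor the RNA per cell can be read from these changes.

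**Figure D1:**
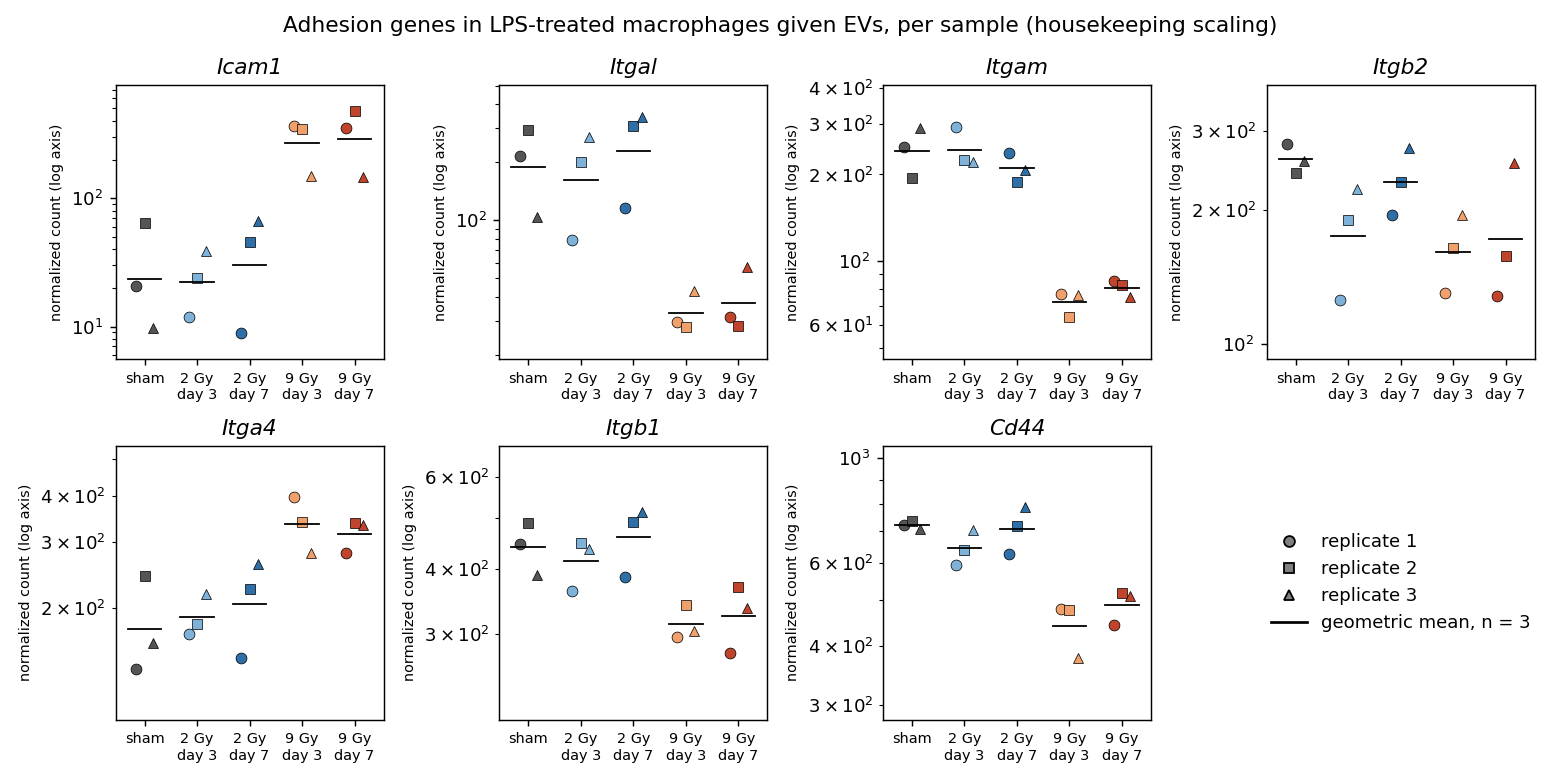
Normalized counts of the 7 adhesion genes tested (log axis) in each of the 15 samples, with symbols for replicate number and lines at the geometric mean of each group. *Icam1* and *Itga4* lie higher and *Itgal* and *Itgam* lower in all 6 samples given 9 Gy EVs than in the 9 other samples, while *Itgb2* overlaps.

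*Icam1*, the ligand of LFA-1 and Mac-1, was low in every sample without 9 Gy EVs. Its normalized counts were 20.8, 64.6 and 9.79 in the sham group, 11.9, 23.8 and 38.9 in the 2 Gy day 3 group, and 8.87, 45.3 and 66.9 in the 2 Gy day 7 group. They were 368, 348 and 149 in the 9 Gy day 3 group and 354, 480 and 145 in the 9 Gy day 7 group. The 9 Gy samples did not overlap any other sample, although replicate 3 of both 9 Gy groups was less than 0.5 times its companions. The raw counts behind these values were 45 to 87 at 9 Gy day 3, 309 to 938 at 9 Gy day 7 and 13 to 84 in the sham group. *Icam1* rose 8.87-fold against sham EVs at day 3 (log2 fold change 3.15, SE 0.75, adjusted p = 0.00364, edgeR) and 10.2-fold at day 7 (3.35, SE 0.72, adjusted p = 0.0013, edgeR). The 95% intervals of the fold ran from 2.88 to 27.3 and from 3.47 to 30.0. Without sham replicate 2, the highest of its group, the log2 fold changes were 4.23 and 4.43. With replicates 1 and 2 of the day 3 group left out, the 1 remaining sample, the lowest of its group, gave 2.22, which did not pass (adjusted p = 0.138, edgeR).

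*Vcam1*, the other ligand, was not tested. Its raw counts were 9, 11 and 7 in the sham group, 10, 17 and 14 in the 2 Gy day 3 group, 9, 12 and 8 in the 2 Gy day 7 group, 1, 2 and 4 in the 9 Gy day 3 group and 10, 6 and 7 in the 9 Gy day 7 group. These counts were in the range of markers of other cell types, such as the T cell gene *Cd3e*, which had 6 to 15 counts in the sham group, and cannot be told apart from background. The control probes that would set the background are not analysed here.

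*Itgal*, the alpha subunit of LFA-1, gave the opposite picture to its ligand. Its normalized counts were 217, 295 and 104 in the sham group, 78.7, 201 and 272 in the 2 Gy day 3 group, and 115, 308 and 342 in the 2 Gy day 7 group. All samples given 9 Gy EVs lay below these, at 29.6, 28.0 and 42.9 for day 3 and 31.5, 28.2 and 57.0 for day 7. *Itgal* fell 5.96-fold at day 3 (log2 fold change −2.57, SE 0.65, adjusted p = 0.00515, edgeR) and 5.25-fold at day 7 (−2.39, SE 0.51, adjusted p = 0.00127, edgeR). At day 3 the value rested on raw counts of 5, 7 and 13. When all counts under 20 were set to 20, the change at day 3 was −1.26 and did not pass (adjusted p = 0.0656, edgeR), and with replicates 1 and 2 of that group left out, the 1 remaining sample gave −2.25 (adjusted p = 0.124, edgeR). At day 7 the raw counts were 64, 55 and 121.

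The spread of *Icam1* and *Itgal* within groups ran side by side where no 9 Gy EVs were given. Among the sham samples replicate 2 was the highest and replicate 3 the lowest for both genes. In both 2 Gy groups replicate 1 was the lowest for both genes and replicate 3 the highest. In the 9 Gy groups the order turned, since replicate 3 had the lowest *Icam1* and the highest *Itgal* of both groups. This was singled out after the values were seen and was not tested.

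*Itgam*, the alpha subunit of Mac-1 and a common macrophage marker, fell with little spread between the 9 Gy replicates. Normalized counts were 250, 194 and 291 in the sham group, 292, 225 and 220 in the 2 Gy day 3 group, and 238, 189 and 207 in the 2 Gy day 7 group. With 9 Gy EVs they were 77.1, 64.1 and 76.0 at day 3 and 85.1, 82.5 and 74.9 at day 7. The lowest sample without 9 Gy EVs was thus more than 2 times the highest with them. *Itgam* fell 3.39-fold at day 3 (log2 fold change −1.76, SE 0.20, adjusted p = 9.59e-06, edgeR) and 3.03-fold at day 7 (−1.60, SE 0.17, adjusted p = 4.61e-06, edgeR). With replicates 1 and 2 of the day 3 group left out, the 1 remaining sample gave −1.69.

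*Itgax*, the alpha subunit known as CD11c and used to mark dendritic cells, was not tested. Its raw counts were 12, 9 and 11 in the sham group, 8, 13 and 13 in the 2 Gy day 3 group, and 10, 7 and 14 in the 2 Gy day 7 group. They were 1 in each 9 Gy day 3 sample and 5, 14 and 20 at 9 Gy day 7. The 9 Gy day 3 values are the lowest count in the files, which 190 or more genes shared in each of those samples, and no change can be read from them.

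*Itga4*, the alpha subunit of VLA-4, was the only alpha subunit tested that rose. Its normalized counts were 137, 244 and 161 in the sham group, 170, 180 and 218 in the 2 Gy day 3 group, and 147, 225 and 261 in the 2 Gy day 7 group. With 9 Gy EVs they were 397, 340 and 281 at day 3 and 280, 338 and 333 at day 7, so that the lowest 9 Gy sample lay just above the highest of the others. *Itga4* rose 1.86-fold at day 3 (log2 fold change 0.90, SE 0.25, adjusted p = 0.00889, edgeR) and 1.75-fold at day 7 (0.81, SE 0.24, adjusted p = 0.00926, edgeR). With replicates 1 and 2 of the day 3 group left out, the 1 remaining sample gave 0.63, which did not pass (adjusted p = 0.201, edgeR).

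Under housekeeping scaling the beta subunits moved less than *Itgal*, *Itgam* and *Itga4*. *Itgb2*, the partner of *Itgal*, *Itgam* and *Itgax*, was at 281, 242 and 257 normalized counts in the sham group, 125, 190 and 223 in the 2 Gy day 3 group, and 194, 230 and 274 in the 2 Gy day 7 group. It was at 130, 164 and 195 in the 9 Gy day 3 group and 128, 157 and 254 in the 9 Gy day 7 group. The 9 Gy samples overlapped the 2 Gy samples throughout, and replicate 3 of 9 Gy day 7 overlapped the sham samples. The log2 fold change against sham EVs was −0.65 at day 3 (SE 0.28, adjusted p = 0.0654, edgeR) and −0.53 at day 7 (SE 0.26, adjusted p = 0.0861, edgeR). *Itgb2* passed in some other settings. Without 9 Gy day 7 replicate 3 it was −0.86 at day 7 (adjusted p = 0.00662, edgeR), and with the replicate number as a block it was −0.71 and −0.60 (adjusted p = 0.0146 and 0.0150, edgeR). At day 3 it passed without 2 Gy day 3 replicate 1 or 9 Gy day 7 replicate 1 or 3 (adjusted p = 0.0476, 0.0495 and 0.0297, edgeR) and in DESeq2 (adjusted p = 0.0421). *Itgb1*, the partner of *Itga4* and of many other alpha subunits, was at 445, 490 and 389 in the sham group, 363, 449 and 436 in the 2 Gy day 3 group, 386, 490 and 513 in the 2 Gy day 7 group, 296, 340 and 304 in the 9 Gy day 3 group and 276, 370 and 336 in the 9 Gy day 7 group. Its log2 fold change was −0.49 at day 3 (SE 0.16, adjusted p = 0.0220, edgeR) and −0.43 at day 7 (SE 0.16, adjusted p = 0.0262, edgeR). Without 9 Gy day 3 replicate 1 or 3, or without sham replicate 1 or 2, it no longer passed at day 3 (−0.46, −0.47, −0.49 and −0.41, adjusted p from 0.0515 to 0.0692, edgeR), and at day 7 the same held without 9 Gy day 7 replicate 1 (−0.32) or sham replicate 1 or 2 (−0.43 and −0.35, adjusted p from 0.0621 to 0.116, edgeR). It passed at neither day when scaled to the housekeeping genes whose mean count was 100 or more (−0.31 and −0.24, adjusted p = 0.104 and 0.166, edgeR) or when only the groups compared were fitted (adjusted p = 0.0574 and 0.0749, edgeR), and at day 3 not without the filter (adjusted p = 0.0529, edgeR).

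*Cd44*, which binds hyaluronan and lets leukocytes roll on vessel walls, was the most even of the 7 genes in the sham group, at 722, 736 and 708 normalized counts. It was at 593, 639 and 706 in the 2 Gy day 3 group and 626, 718 and 789 in the 2 Gy day 7 group. With 9 Gy EVs it was at 480, 476 and 376 at day 3 and 443, 519 and 511 at day 7, below every other sample. Under housekeeping scaling the log2 fold change was −0.70 at day 3 (SE 0.14, adjusted p = 0.000836, edgeR) and −0.56 at day 7 (SE 0.13, adjusted p = 0.00274, edgeR). With total counts it turned to 0.33, which did not pass, and 0.55, which did. *Selplg*, the ligand of selectins known as PSGL-1, was not tested. Its raw counts were 6 or 7 with sham and 2 Gy day 3 EVs, 6 to 9 in the 2 Gy day 7 group, 1 in each 9 Gy day 3 sample and 7, 1 and 8 in the 9 Gy day 7 group.

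**Figure D2:**
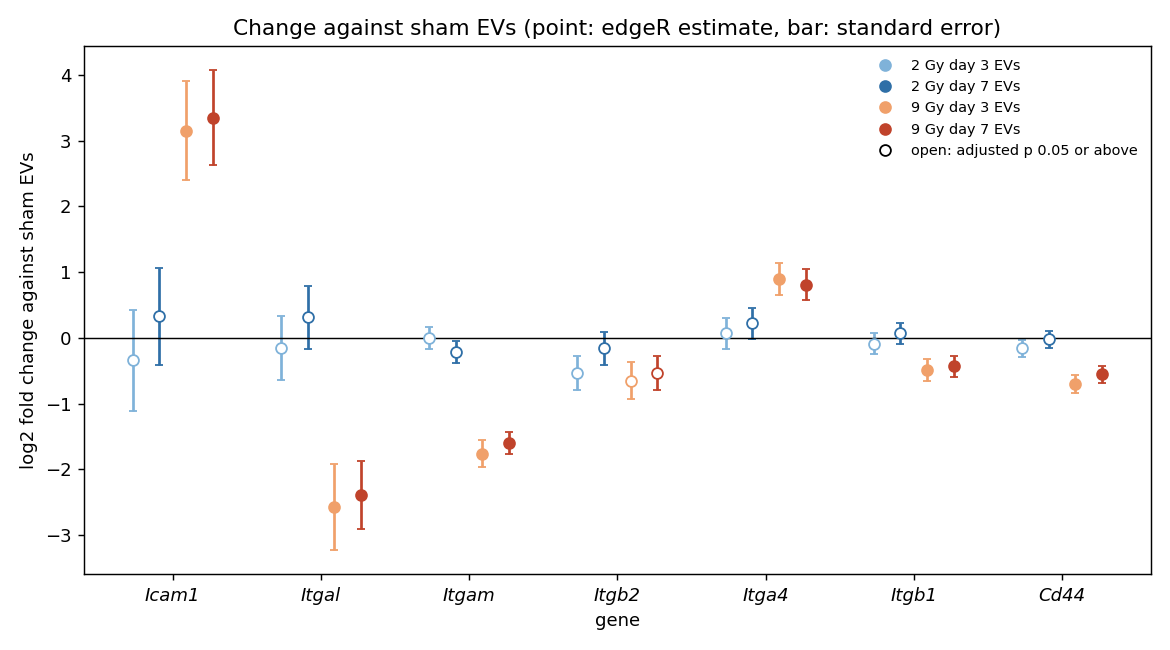
Log2 fold change against sham EVs, with its standard error, for the 7 genes and each of the 4 irradiated EV groups (filled points: adjusted p under 0.05). Filled points appear for 9 Gy EVs only, from 3.35 for *Icam1* to −2.57 for *Itgal*.

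How the samples are scaled decides the direction of the smaller changes. Under housekeeping scaling the median of all genes tested was −0.46 at 9 Gy day 3 and −0.45 at day 7. Relative to that median *Itgb1* was at −0.04 and 0.02, *Itgb2* at −0.19 and −0.08 and *Cd44* at −0.25 and −0.11, whereas *Icam1* was at 3.61 and 3.80, *Itga4* at 1.35 and 1.26, *Itgal* at −2.12 and −1.94 and *Itgam* at −1.31 and −1.15. With scaling to total counts the values of *Cd44*, *Itgb1* and *Itgb2* turned positive at both days (0.33, 0.54 and 0.36 at day 3, where *Itgb1* alone passed, and 0.55, 0.68 and 0.53 at day 7, where each passed), and with TMM scaling they lay between −0.23 and 0.05, none of them past the threshold. The housekeeping genes themselves moved. Of 13 tested, 3 were higher and 6 lower at day 3 and 4 higher and 4 lower at day 7 with housekeeping scaling, 5 and 0, and 6 and 1 with TMM, and 10 and 0, and 11 and 0 with total counts. *Icam1* and *Itga4* were higher and *Itgal* was lower, past the threshold, under each of the 5 scalings at both days, with ranges at day 7 from 3.35 to 4.54 for *Icam1*, 0.81 to 1.92 for *Itga4* and −2.39 to −1.32 for *Itgal*. *Itgam* was lower under each of them as well, except that it did not pass at day 7 with total counts (−0.49, adjusted p = 0.0559, edgeR).

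**Figure D3:**
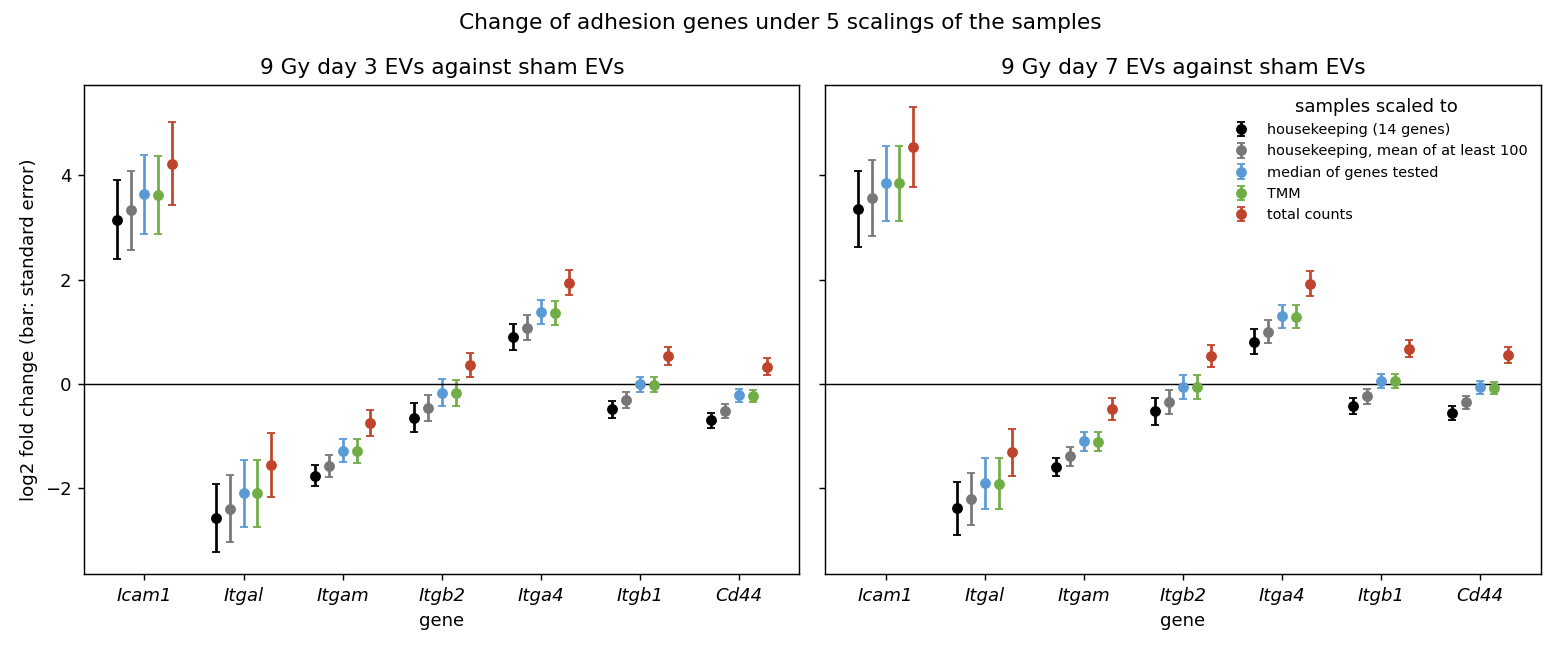
Log2 fold change against sham EVs, with its standard error, of the 7 genes under 5 scalings of the samples at 9 Gy day 3 (left) and 9 Gy day 7 (right). *Icam1*, *Itga4*, *Itgal* and *Itgam* stay on one side of 0 under every scaling, and *Itgb2*, *Itgb1* and *Cd44* cross it.

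Ratios of a pair of genes counted in the same sample do not depend on the scaling, and they were compared between the 6 samples given 9 Gy EVs and the 9 samples given sham or 2 Gy EVs. Of 8 ratios, chosen with earlier results of these data known, 5 could be used, since the others needed *Vcam1* or *Itgax*. The counts of different probes are not on one scale, so only the difference of a ratio between groups is read. *Itgal* over *Itgb2*, the subunits of LFA-1, ran from −2.55 to −2.02 (log2, median −2.17) with 9 Gy EVs and from −1.31 to 0.42 (median 0.08) in the other samples. *Itgam* over *Itgb2*, the subunits of Mac-1, ran from −1.76 to −0.59 (median −1.14) and from −0.40 to 1.22 (median −0.01). Relative to *Itgb2*, *Itgal* and *Itgam* were thus lower in every 9 Gy sample than in any other. *Itga4* over *Itgb1*, the subunits of VLA-4, ran from −0.13 to 0.42 (median −0.01) with 9 Gy EVs and from −1.70 to −0.97 (median −1.13) without. *Icam1* over *Itgb2*, ligand over receptor subunit, ran from −0.81 to 1.61 (median 1.28) and from −4.71 to −1.90 (median −2.99). *Itgb1* over *Itgb2*, the beta subunits, overlapped, from 0.40 to 1.23 and from 0.60 to 1.53.

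The mean log2 ratio differed by −2.07 for *Itgal* over *Itgb2*, −1.21 for *Itgam* over *Itgb2*, 1.24 for *Itga4* over *Itgb1* and 3.87 for *Icam1* over *Itgb2*. In an exact two-sided permutation test over the samples each of these 4 gave p = 0.0003996, the smallest it can give, or 0.0004995 after Benjamini-Hochberg adjustment over the 5 ratios. All 6 samples lay apart from the other 9 in these ratios, chosen with earlier results known, so this p adds nothing to that separation. The test takes all samples as independent. Samples of the same replicate number, however, deviated together between the 9 Gy groups, as replicate 3 did for *Icam1* over *Itgb2* (−0.39 and −0.81, against 1.09 to 1.61 in the others). Those of the 2 Gy groups, among the other 9, did so too (correlations over genes of 0.365 to 0.779). The difference was −0.06 for *Itgb1* over *Itgb2* (p = 0.697, exact permutation test). With the 9 Gy day 7 samples alone the 4 differences were −2.03, −1.18, 1.17 and 3.88 (adjusted p = 0.0114 each, exact permutation test), so they were as large without the shallow day 3 samples. Against the 3 sham samples alone they were −1.79, −1.02, 1.36 and 4.2 (adjusted p = 0.0298 each, exact permutation test).

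**Figure D4:**
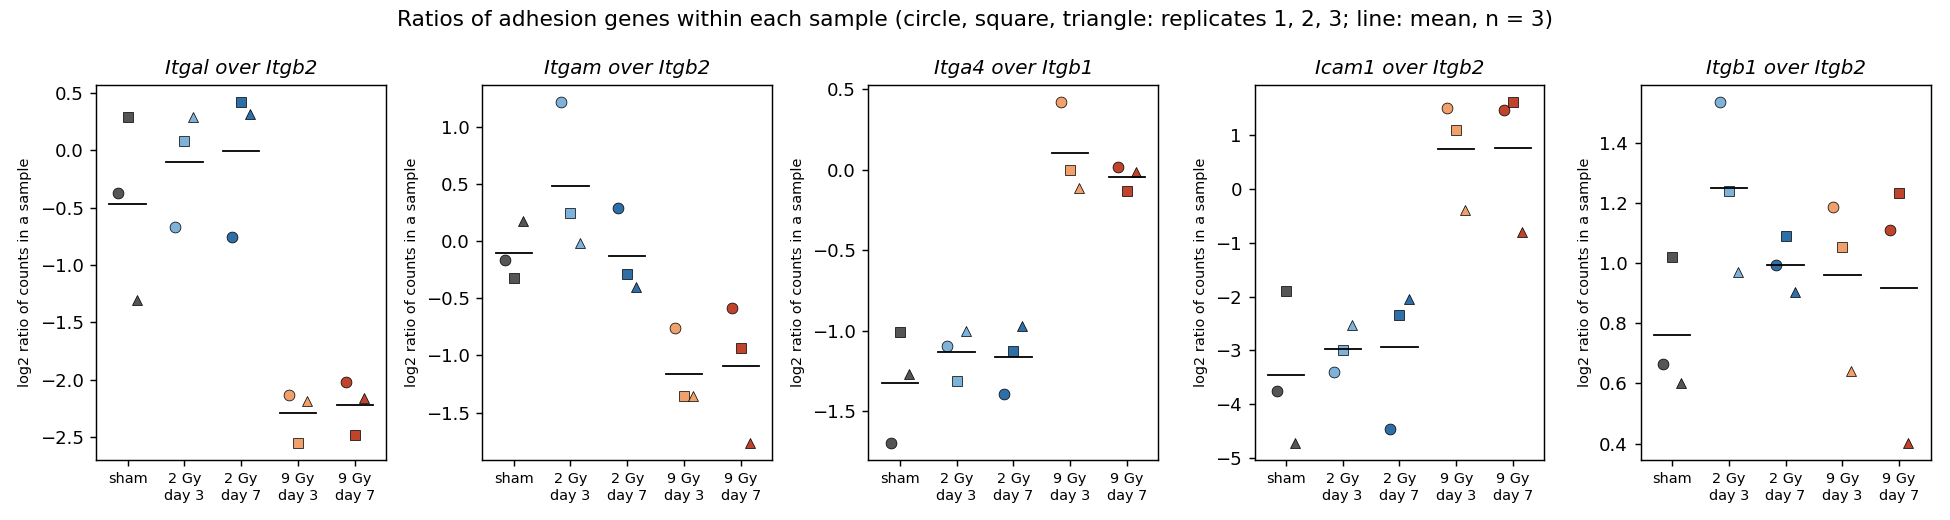
Log2 ratio of the raw counts of a pair of genes within each sample, by EV group, with lines at group means. The 6 samples given 9 Gy EVs lie apart from the other 9 in the first 4 panels and overlap them in the last, *Itgb1* over *Itgb2*.

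EVs from mice given 2 Gy left none of the 7 genes past the threshold. Over all 269 genes tested, edgeR's test called 0 at either day (0%), and 7 genes at day 3 (2.60%) and 1 at day 7 (0.372%) had an unadjusted p under 0.05, none of them an adhesion gene described here. DESeq2 also called 0 of the 7 genes. Log2 fold changes of the 7 genes ran from −0.53 to 0.07 (day 3) and from −0.21 to 0.33 (day 7). *Itgb2* at day 3 was the furthest from 0, at −0.53 (95% interval −1.08 to 0.02), and its 3 samples, at 125 to 223, lay below the 3 sham samples, at 242 to 281. *Cd44* at day 3, at −0.16 (95% interval −0.45 to 0.13), also did not overlap the sham samples, being lower in 3 of 3. Of all genes tested, 13.0% did not overlap in this comparison. The paper, which used nSolver for normalization and differential expression, reports *Itgb2* among the genes significantly lower with 2 Gy day 3 EVs. The intervals do not show that 2 Gy and sham EVs acted alike: for *Icam1* they ran from −1.98 to 1.31 at day 3 and from −1.26 to 1.92 at day 7, and for *Itgal* from −1.18 to 0.88 and from −0.71 to 1.34.

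Set against each other directly, the doses differed in 6 of the 7 genes, 2 higher and 4 lower with 9 Gy EVs, where 67.7% of all genes tested passed, 15.6% higher and 52.0% lower. With TMM or median scaling 4 genes passed, 2 higher and 2 lower, and with total counts 7, 5 higher and 2 lower. The share of all genes called under these scalings is not given here. The log2 difference was 3.26 for *Icam1* (SE 0.52, adjusted p = 9.43e-05), −2.57 for *Itgal* (SE 0.41, adjusted p = 9.64e-05), −1.58 for *Itgam* (SE 0.13, adjusted p = 1.87e-07) and 0.71 for *Itga4* (SE 0.17, adjusted p = 0.00229), all by edgeR. *Cd44* differed by −0.54 and *Itgb1*, whose samples overlapped between the doses, by −0.45 under housekeeping scaling, by −0.075 and 0.011 with TMM, which did not pass, and by 0.61 and 0.69 with total counts. *Itgb2* differed by −0.25 (95% interval −0.65 to 0.16), by −0.41 without 9 Gy day 7 replicate 3 (adjusted p = 0.0404, edgeR), and by 0.87 with total counts. With the 9 Gy day 3 group left out, a check chosen after seeing the data, the differences were 3.36, −2.47, −1.5 and 0.66 for the first 4 genes, and the same number of genes passed. This comparison and those in the sham group share the 9 Gy samples.

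The day of EV isolation made no difference that the test could call. Between 9 Gy day 7 and day 3 EVs the log2 differences of the 7 genes ran from −0.09 to 0.20, and 0 of 269 genes passed (edgeR; 6 genes, or 2.23%, at an unadjusted p under 0.05). For *Icam1* the 95% interval of that difference ran from −1.23 to 1.64, and for *Itgam* from −0.29 to 0.61, so the test does not show that the days were alike. Between 2 Gy day 7 and day 3 EVs the differences ran from −0.22 for *Itgam* to 0.67 for *Icam1*, and 0 genes passed (edgeR; 4 genes, or 1.49%, at an unadjusted p under 0.05). Samples of the same replicate number deviated together between the days of a dose, but so did some of unlike number. For 2 Gy day 3 replicate 3 the correlation over genes was 0.611 with day 7 replicate 2 and 0.534 with day 7 replicate 3. The data thus do not show that the numbers are pairs. When only the 2 Gy groups were fitted, with a block for each replicate number, a check chosen after seeing the data, *Itgal* rose by 0.49 (adjusted p = 0.0112, edgeR) and *Itgb2* by 0.38 (adjusted p = 0.0337, edgeR) from day 3 to day 7, each higher in 3 of 3 pairs. *Cd44* and *Itgb1* were also higher and *Itgam* lower in 3 of 3 pairs, without passing. In that fit 27 genes of the panel passed.

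Other adhesion genes of the panel gave no further gene that rose against sham EVs under housekeeping scaling. Of a list of 57 genes of adhesion and extravasation, 30 were on the panel and 10 were tested, of which 5 fell and 0 rose in the 9 Gy day 3 group and 7 fell and 0 rose at day 7, beside 41.3% and 49.1% of all genes called lower, while total-count scaling turned these into 4 higher and 1 lower, and 5 higher and 1 lower, and TMM left 0 higher and 2 lower, and 0 higher and 4 lower. The tetraspanin *Cd82* fell the most of these, with log2 fold changes of −1.73 at day 3 and −2.01 at day 7 (adjusted p = 3.05e-06 and 3.29e-07, edgeR). It was lower under each of the 5 scalings, by less with TMM (−1.26 and −1.53) and with total counts (−0.72 and −0.92). It was at 535 to 620 normalized counts in the sham group, 142 to 205 in the 9 Gy day 3 group and 123 to 169 in the 9 Gy day 7 group. The adhesion molecule *Ceacam1* fell by 1.52 and 1.54, on 1 to 4 raw counts at day 3, but did not pass at day 3 with TMM (−1.05) or at either day with total counts (−0.53 and −0.46). *Itga5*, the alpha subunit that pairs with *Itgb1* as the fibronectin receptor, fell by 1.37 and 0.96, but was at −0.89 and −0.48 with TMM and −0.34 and 0.13 with total counts, which did not pass. Unlike *Itga4*, its fellow partner of *Itgb1*, it was at 178 ± 41.6 in the 9 Gy day 3 group and 239 ± 62.5 at day 7, against 466 ± 162 in the sham group (SD, n = 3). The urokinase receptor *Plaur* fell by 1.18 and 1.03, or was at −0.17 and 0.04 with total counts, and the tetraspanin *Cd81* was at −0.89 and −1.2, or at 0.12 and −0.09, and did not pass at day 3 with TMM. Of 40 genes of integrin signaling 12 were on the panel and 11 were tested. With 9 Gy EVs 3 of the 11 fell at day 3 and 4 at day 7, beside 41.3% and 49.1% of all genes called lower, and none rose, whereas with total counts 5 rose and none fell at either day. The kinases *Src* (−1.23 and −1.26) and *Fyn* (−1.54 and −1.54) and the signaling gene *Arhgdib* (−1.06 and −1.09) fell at both days, also with TMM but not with total counts. The kinase *Syk* passed at day 7 (−1.34) but not at day 3 (−0.56, adjusted p = 0.150, edgeR), and with total counts it was not called lower at day 7 either.

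The patterns across samples most like those of *Icam1* and *Itgb2* were sought among the genes that passed the filter, by Pearson's correlation of log2 normalized counts over the 15 samples. The samples share groups and scaling, so the values are descriptions. For *Icam1* these were *Ltb*, a cytokine of the tumor necrosis factor family (0.98), *Ifnb1*, interferon beta (0.98), and *Ppia*, one of the housekeeping genes used for scaling (0.97). For *Itgb2* they were *Cfp*, the complement factor properdin (0.86), *Itga5* (0.80) and *Slamf7* (0.79). For *Vcam1* the highest value was 0.82 with *H2-Ob*, on counts that never exceeded 17.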

How the data were processed

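The 15 samples were run on the nCounter Mouse Immunology panel of nanoString. The authors deposited raw counts per gene as whole numbers. Control probes are not analysed here. Their nSolver normalization was not used, and its settings are not given in the sources used here. The lowest deposited count was 1 and no value was 0, and no background was subtracted. Samples were grouped by title.

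Counts were divided by factors from the geometric mean of 14 housekeeping genes, and the 269 of 561 genes whose mean count was 20 or more were fitted with all 5 groups in edgeR 4.0.16 (quasi-likelihood test, prior count 0.125, R 4.3.3), with Benjamini-Hochberg adjustment and a threshold of 0.05. The standard error is the absolute log2 fold change divided by the square root of F. The 95% intervals use the degrees of freedom of that test. Log2 ratios of raw counts of a pair of genes were compared by exact permutation tests (scipy 1.17.1). The genes described, the gene lists (adhesion, integrin signaling, cell type markers), the ratios and the motifs were chosen with earlier results of these data known. Genes outside the 10 were named where they passed at both 9 Gy days among the other adhesion genes (at most 6). The genes of integrin signaling were named after their values were seen.

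Samples with the same replicate number deviated together (correlations over genes of 0.365 to 0.779 between the 2 Gy groups and 0.330 to 0.717 between the 9 Gy groups). Between other groups some correlations of like numbers were under 0.1, and between a 9 Gy group and any other group they ran from −0.180 to 0.270. Samples of unlike number could also go together or apart. Sham replicate 3 correlated with replicate 1 of 2 Gy day 3 (0.731) and of 2 Gy day 7 (0.783). For sham replicate 2 the values with the same samples were −0.704 and −0.803. The sources do not say what the numbers share. Simulated counts with a log2 change of 1.5 were recovered for 89.9% of 99 changed genes among 281 genes at 9 Gy day 3, 97.9% of 96 among 282 at 9 Gy day 7 and 97.9% of 97 among 280 at 2 Gy day 3. Of the genes called, 2.2%, 5.05% and 1.04% were false, and the median log2 errors were 0.019, −0.144 and 0.055. The simulation held the housekeeping genes fixed and drew samples independently. It therefore does not cover the dependence on scaling, or samples that deviate together, in these data. Alternatives were other scalings (TMM, the median, total counts, the housekeeping genes whose mean count was 100 or more), filters, counts under 20 set to 20, the groups in the fit, a replicate block, DESeq2 1.42.0, other placings of the samples with conflicting day labels and leaving out each sample. Totals per sample, from 43176 to 837995 counts, limit precision most at 9 Gy day 3.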

Additional observations from a re-analysis of the deposited data

Results flagged for a closer look

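For 6 of the 7 genes tested, the change against sham EVs differed between 9 Gy and 2 Gy EVs in edgeR's test of that difference. The log2 difference between doses was 3.26 for *Icam1*, −2.57 for *Itgal*, −1.58 for *Itgam*, 0.71 for *Itga4*, −0.45 for *Itgb1* and −0.54 for *Cd44*. The last pair did not pass with TMM (0.011 and −0.075) and turned with total-count scaling (0.69 and 0.61), and of all genes tested 67.7% passed in this comparison. No group was large enough to be searched for samples that stand apart.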

How the results depend on the processing

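Results are log2 fold changes unless named. Under total-count scaling *Cd44* was 0.33 at 9 Gy day 3, 0.55 at day 7, 0.44 with both 9 Gy groups against sham EVs and 0.61 for 9 against 2 Gy, where *Itgb1* was 0.54, 0.68, 0.61 and 0.69 and *Itgb2* 0.36, 0.53, 0.45 and 0.87. At 2 Gy that scaling gave *Itgam* −0.066 at day 3 and *Itgb1* −0.0088 at day 7, and the housekeeping genes whose mean count was 100 or more gave *Itgam* −0.0025 at day 3. *Itgb1* was 0.046 (TMM) and 0.048 (median) at 9 Gy day 7, 0.014 and 0.019 for both 9 Gy groups, and 0.011 (TMM) for 9 against 2 Gy, where *Itgb2* was 0.22 (TMM) and 0.20 (median). For both 9 Gy groups against sham EVs, 7 genes passed, but 4 with TMM and 4 with median scaling. With the samples of conflicting labels at day 7 or left out, which leaves 1 sample at 9 Gy day 3, 2 genes (*Itgam* and *Cd44*) passed at 9 Gy day 3, in place of 6, and from day 3 to day 7 *Itga4* was 0.25 or 0.17, *Itgal* −0.21 or −0.14 and *Itgb2* −0.19 or −0.12. With counts under 20 set to 20 that difference was −1.13 for *Itgal* and −0.14 for *Itgam*. The replicate block within the 2 Gy groups gave 2 genes in place of 0. The block over all groups added *Itgb2* at both 9 Gy days and changed no other call of the 7 genes. Against sham samples alone the ratio of *Itgb1* over *Itgb2* differed by 0.18. The causes were not tested.

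Leaving out 1 sample gave 5 to 7 genes at 9 Gy day 3 and at day 7 and 6 to 7 for both groups and for 9 against 2 Gy. The share of all genes called in these fits is not given here. The ratio of *Itgb1* over *Itgb2* ranged from −0.12 to 0.042. Values that changed sign among those not passing ranged, for 2 Gy against sham EVs, from −0.80 to 0.74 for *Icam1* at day 3 and −0.22 to 1.41 at day 7, −0.54 to 0.21 and −0.0047 to 0.67 for *Itgal*, −0.17 to 0.0033 and −0.014 to 0.18 for *Itgb1*, −0.094 to 0.34 for *Itga4* and −0.14 to 0.15 for *Itgam* at day 3, and −0.10 to 0.061 for *Cd44* at day 7. From 9 Gy day 3 to day 7 they ranged from −0.18 to 0.56 for *Icam1*, −0.21 to 0.031 for *Itga4*, −0.20 to 0.44 for *Itgal*, −0.037 to 0.17 for *Itgb1* and −0.22 to 0.32 for *Itgb2*, and from 2 Gy day 3 to day 7 from −0.029 to 0.36 for *Itga4*. *Itgb2* with both 9 Gy groups against sham EVs, −0.59 (adjusted p = 0.0326, edgeR), ranged from −0.76 to −0.49 and did not pass without replicate 1 or 2 of either 9 Gy group or sham replicate 1 or 3 (adjusted p from 0.0561 to 0.102, edgeR), or without the whole 9 Gy day 3 group (−0.53, adjusted p = 0.0983, edgeR). At 9 Gy day 3, *Itgal* rested on 5 to 13 counts and *Itgam* on 13 to 23.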
